A study of Mus musculus with 4 samples.

Results

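The genes described here are 9 histone demethylases of the Jumonji C (JmjC) class other than the KDM5 enzymes: Kdm2a, Kdm3a, Kdm3b, Kdm4a, Kdm4b, Kdm4c, Kdm6a, Kdm6b and Phf8. They were chosen by name, as demethylases of lysines 9, 27 and 36 of histone H3, and each was matched by its RefSeq identifiers to 1 of 23697 loci in the deposited table. The RNA came from WW6 mouse embryonic stem cells, a line of mixed C57/B6J, 129/Sv and SJL background grown without feeder cells in serum with leukemia inhibitory factor. In 2 libraries, knockdown A and B, the cells had been transiently transfected with small interfering RNA against Kdm5b. In the other 2, control A and B, they had received small interfering RNA against GFP with the same lipid reagent. Kdm5b demethylates lysine 4 of histone H3, and the comparison asks whether the RNA of demethylases with other targets differed once Kdm5b was lowered. The labels name 1 cell line, and nothing in them tells whether A and B come from different cultures. The p-values therefore cover the spread of these libraries alone, which can be technical. The time between transfection and RNA extraction is not given in the sources used here.

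JmjC demethylases are dioxygenases that hold iron in their active site and use oxygen and 2-oxoglutarate to oxidise a methyl group on a lysine, which then leaves as formaldehyde. Each family has its own target: KDM3 enzymes act on methylated lysine 9 of histone H3 (H3K9), KDM4 enzymes on H3K9 and lysine 36 (H3K36), KDM2A on H3K36, KDM6 enzymes on lysine 27 (H3K27), and PHF8 on H3K9 and on a lysine of histone H4. H3K9 and H3K27 methylation mark silent chromatin, and H3K36 methylation marks transcribed gene bodies. In mouse embryonic stem cells Kdm3a and Kdm4c have been tied to self-renewal. Kdm3a and Kdm4b are also known as genes that low oxygen induces.

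The sequences before the start sites of the most abundant members, Kdm4c and Kdm3a, are shown because the core of the hypoxia response element can be looked for in them beside the library pattern described further on. They are the 250 bases before a RefSeq start, read 5′ to 3′ on the gene's strand from the GRCm38.p6 assembly, with every match to ACGTG or GCGTG on either strand in capitals.
Kdm4c, chr4:74251629-74251878, plus strand: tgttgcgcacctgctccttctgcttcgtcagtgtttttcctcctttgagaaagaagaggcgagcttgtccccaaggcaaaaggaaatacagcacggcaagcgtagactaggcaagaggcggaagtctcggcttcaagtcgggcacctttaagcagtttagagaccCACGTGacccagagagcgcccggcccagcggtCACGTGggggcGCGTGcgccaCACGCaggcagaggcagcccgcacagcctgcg
Kdm3a, chr6:71632918-71633167, minus strand: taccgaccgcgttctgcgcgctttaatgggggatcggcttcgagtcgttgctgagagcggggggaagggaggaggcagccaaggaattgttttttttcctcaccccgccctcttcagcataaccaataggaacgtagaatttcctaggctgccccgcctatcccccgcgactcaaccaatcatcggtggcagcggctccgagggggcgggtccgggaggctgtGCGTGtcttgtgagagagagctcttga
In the Kdm4c window ACGTG matched at 4 places counted over both strands, which overlap in pairs as the letters CACGTG, and GCGTG matched at 2. The Kdm3a window held 1 match, to GCGTG. Either motif was present in 38.6% of 32851 windows of this length, so a match is common, and it is a description of the letters and not of a bound site. The RefSeq table held windows for 5 of the 9 members, 8 windows in all, because Kdm4c has another start upstream and Kdm3a has 2 further starts. Of these 8, 4 held either motif, those of Kdm6a and Phf8 among them, and 0 held TATAAA, which is found in 12.4% of all windows. The windows shown had a GC content of 60.4% for Kdm4c and 59.6% for Kdm3a, against a median of 52.4% over all windows. Their ratios of observed to expected CpG were 0.834 and 0.908, against a median of 0.373. Of each gene's windows the one shown was chosen because it holds a match. The other Kdm4c window had a GC content of 39.6% and a CpG ratio of 0, and the other Kdm3a windows had 72.8% and 48.4% GC and CpG ratios of 1.03 and 0. None of these 3 held either motif. The deposited values are given per locus, so which start was used in these cells cannot be read from them.

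All values below are FPKM (fragments per kilobase of transcript, corrected for the number mapped), so levels of different genes can be compared per length. Differences were tested with limma on log2(FPKM + 1) over the 11784 loci whose mean in the 4 libraries was at least 1 FPKM. Log2 fold changes are knockdown over control on that scale, which understates the change of low genes. Relative to control B, steps between the lowest values gave depths of 76.3% for knockdown A, 98.3% for knockdown B and 103% for control A. Knockdown A stood apart from the rest: 50.4% of its loci were listed at 0, against 36.3% in knockdown B and 34.3% and 34.9% in the controls. Over the loci tested, the Pearson r of log2(FPKM + 1) was 0.890 between the knockdown libraries and 0.940 between the controls. Knockdown B correlated more with control A (0.941) and control B (0.957) than with knockdown A. The 6 embryonic stem cell markers listed summed to 3988 and 3425 FPKM in knockdown A and B and 3084 and 3661 FPKM in control A and B. The 6 fibroblast markers summed to 0.258 and 1.55 FPKM in knockdown and 9.17 and 2.92 FPKM in control, with Lum at 0 throughout, and the 6 endoderm markers to 2.32 and 2.57 FPKM against 6.58 and 7.62 FPKM. Of these, 2 fibroblast and 3 endoderm markers reached a mean of 1 FPKM. The part of the lower marker sums in any difference below was not tested. In bulk RNA, fewer cells of a kind and less RNA per cell cannot be told apart.

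Kdm5b itself stood at 22.7 and 31.1 FPKM in the knockdown libraries, against 99.7 and 145 FPKM in the controls. Its log2 fold change was -2.14 (95% interval -2.86 to -1.42), yet its adjusted p by limma over all loci was 0.562. The test thus did not call the targeted gene. In both controls Kdm5b lay above all 9 demethylases described here. In both knockdown libraries it lay below Kdm4c and Kdm3a, and in knockdown A also below Kdm4a.

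None of the 9 demethylases was called higher or lower in knockdown cells. Kdm4c and Kdm3a were the most abundant in every library, and Kdm6b was barely detected. Kdm3a and Kdm6a were somewhat higher and Kdm2a somewhat lower in both knockdown libraries than in both controls, with knockdown means 1.21, 1.21 and 0.790 times the control means for Kdm3a, Kdm6a and Kdm2a. The other members overlapped between the groups. These 3 are of 8 tested members, and 31.9% of all loci likewise did not overlap, so the count is near the background. Of the 9 members 8 reached the mean of 1 FPKM and were tested, and 0 had a limma adjusted p under 0.05, where 0.0339% of all loci did. No tested member reached an unadjusted limma p under 0.05 either, against 2.46% of all loci. The limma adjusted p of the 8 lay between 0.918 and 1.00.

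**Figure D1:**
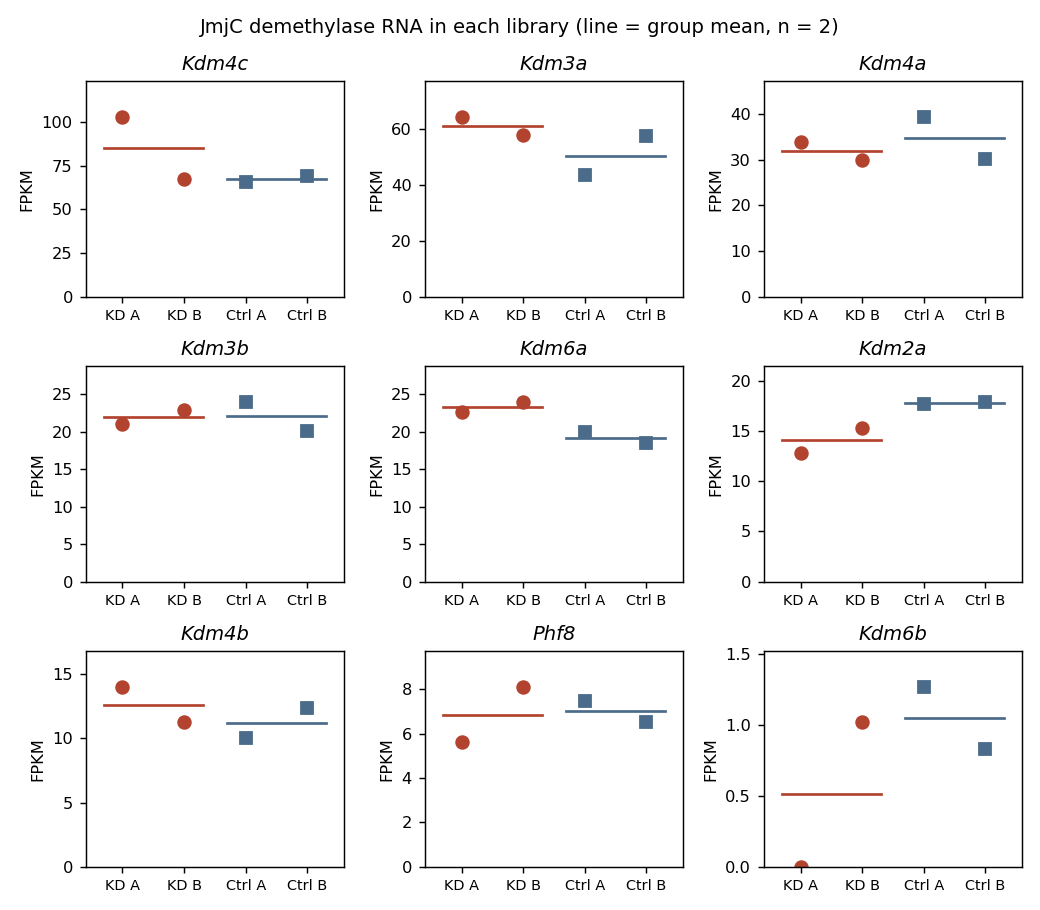
FPKM of each of the 9 demethylases (vertical axes, each from 0) in knockdown libraries A and B (red circles) and control libraries A and B (blue squares), with the mean of each group as a line (n = 2), in order of mean level. Kdm2a lies below both controls and Kdm6a and Kdm3a above both controls in the knockdown libraries, Kdm4c is high in knockdown A alone, and Kdm6b is listed at 0 in knockdown A.

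Among the H3K9 demethylases of the KDM3 family, Kdm3a (NM_001038695 and NM_173001; mm9 chromosome 6, 71538963 to 71582911) had 64.4 and 57.8 FPKM in knockdown A and B, against 43.7 and 57.4 FPKM in control A and B. Both knockdown libraries lay above both controls, but knockdown B exceeded control B only slightly, and control A was the low one. Kdm3a averaged 61.1 ± 4.65 FPKM in knockdown and 50.5 ± 9.69 FPKM in control libraries (SD, n = 2 each), a log2 fold change of 0.28 (standard error 0.25, 95% interval -0.33 to 0.89, limma adjusted p = 0.918). It was 0.09 without control A and 0.47 without control B. Kdm3b (NM_001081256; mm9 chromosome 18, 34936661 to 34999024), its close relative, had 21.0 and 23.0 FPKM in knockdown and 24.0 and 20.2 FPKM in control libraries. The knockdown values lay inside the control range. The Kdm3b log2 fold change was -0.00024 (95% interval -0.65 to 0.65), and changes beyond 0.639-fold and 1.56-fold lay outside its interval.

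The KDM4 enzymes act on both H3K9 and H3K36 and made up the largest share of the family's RNA. Kdm4c (NM_001172095 and NM_144787; mm9 chromosome 4, 73888400 to 74051768) had 103 and 67.4 FPKM in knockdown A and B, against 65.5 and 69.0 FPKM in control A and B. Only knockdown A was high, and knockdown B lay between the controls. Its log2 fold change of 0.31 (standard error 0.27, 95% interval -0.36 to 0.97, limma adjusted p = 0.918) was 0.0034 without knockdown A and 0.61 without knockdown B. Kdm4a (NM_001161823 and NM_172382; mm9 chromosome 4, 117809608 to 117852648) had 33.9 and 30.0 FPKM in knockdown libraries and 39.4 and 30.1 FPKM in controls. Control A was the high one, and the log2 fold change of -0.11 (95% interval -0.75 to 0.54) became 0.08 without it. Kdm4b (NM_172132; mm9 chromosome 17, 56465472 to 56542296) had 14.0 and 11.2 FPKM in knockdown libraries and 10.0 and 12.3 FPKM in controls. The groups overlapped, and its log2 fold change was 0.16 (95% interval -0.60 to 0.92), and 0.02 without knockdown A. The 3 KDM4 genes together summed to 151 and 109 FPKM in knockdown A and B and to 115 and 111 FPKM in control A and B.

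Phf8, an X-linked demethylase of H3K9 and histone H4 that is mutated in an inherited intellectual disability in humans, was the lowest tested member. Phf8 (NM_001113354 and NM_177201; mm9 chromosome X, 147955214 to 148068400) had 5.62 and 8.09 FPKM in knockdown A and B and 7.49 and 6.54 FPKM in control A and B. The knockdown libraries lay on either side of both controls. Its log2 fold change was -0.04 (95% interval -0.93 to 0.84), with the opposite sign, 0.18, without knockdown A.

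The H3K27 demethylases differed most in level within the family. Kdm6a, also called UTX, an X-linked gene that works in complexes with the MLL3 and MLL4 methyltransferases and escapes X inactivation, had 22.7 and 23.9 FPKM in knockdown A and B, against 19.9 and 18.5 FPKM in control A and B (NM_009483; mm9 chromosome X, 17739792 to 17856484). The groups did not overlap, and the replicates of each group lay closer together than the groups. Kdm6a averaged 23.3 ± 0.900 FPKM in knockdown and 19.2 ± 0.991 FPKM in control libraries (SD, n = 2 each), with a log2 fold change of 0.27 (standard error 0.26, 95% interval -0.36 to 0.90, limma adjusted p = 0.918). Leaving out 1 library at a time gave 0.22 to 0.32. Kdm6b, also called JMJD3, a gene known to be induced by inflammatory signals (NM_001017426; mm9 chromosome 11, 69212019 to 69227177), was listed at 0 in knockdown A, at 1.02 FPKM in knockdown B and at 1.26 and 0.826 FPKM in control A and B. Its mean of 0.778 FPKM was under the minimum for testing. Knockdown B lay between the controls, and the 0 was in knockdown A alone. The 3 values above 0 stand for an estimated 27.9 fragments in knockdown B and 36.1 and 23.0 in control A and B. Of 71 loci that lay between 0.8 and 1.3 FPKM in the other 3 libraries, 27 (38.0%) were listed at 0 in knockdown A. The same count was 0 of 8 for knockdown B, 0 of 10 for control A and 0 of 12 for control B. An exact 0 can also be a failed estimate. Without the filter on low values the log2 fold change of Kdm6b was -0.52 (standard error 0.43, limma adjusted p = 0.868).

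Kdm2a removes methyl groups from H3K36 and binds unmethylated CpG islands through a zinc finger. Kdm2a (NM_001001984; mm9 chromosome 19, 4316146 to 4397077) had 12.8 and 15.3 FPKM in knockdown A and B, against 17.7 and 17.9 FPKM in control A and B. Both knockdown libraries lay below both controls, knockdown A further than knockdown B. Kdm2a averaged 14.0 ± 1.78 FPKM in knockdown and 17.8 ± 0.112 FPKM in control libraries (SD, n = 2 each), with a log2 fold change of -0.32 (standard error 0.28, 95% interval -1.01 to 0.36, limma adjusted p = 0.918), and of -0.20 without knockdown A.

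Over the 8 tested members, 2 lay above both controls in both knockdown libraries, where 15.0% of all loci did, and 1 lay below both, where 16.9% did. For Kdm2a and Kdm6a the group difference was larger than the difference between replicates in either group, which held for 17.8% of all loci. The median log2 fold change of the 8 was 0.08, beside -0.03 over all loci tested, and 4 were positive and 4 negative. The signs of Kdm3b and Phf8 turned positive with quantile normalization. The median was 0.04 without knockdown A and 0.10 without knockdown B. In this fit no tested member's interval reached a doubling, and the one that reached a halving was that of Kdm2a, whose lower bound was 0.498-fold. Some other settings gave wider intervals and some gave narrower ones. With a mean of at least 5 FPKM the Kdm2a interval was -0.94 to 0.29, short of a halving. The lower bound of Phf8 was -1.06 there, past a halving. With the replicate letter as a block, the upper log2 bounds of Kdm3a, Kdm4b, Kdm4c, Kdm6a and Phf8 were 1.03, 1.08, 1.05, 1.09 and 1.01, past a doubling. The lower bounds of Kdm2a and Phf8 were -1.18 and -1.10 there, past a halving. Kdm6b, fitted only without the filter on low values, had an interval of -1.66 to 0.62.

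**Figure D2:**
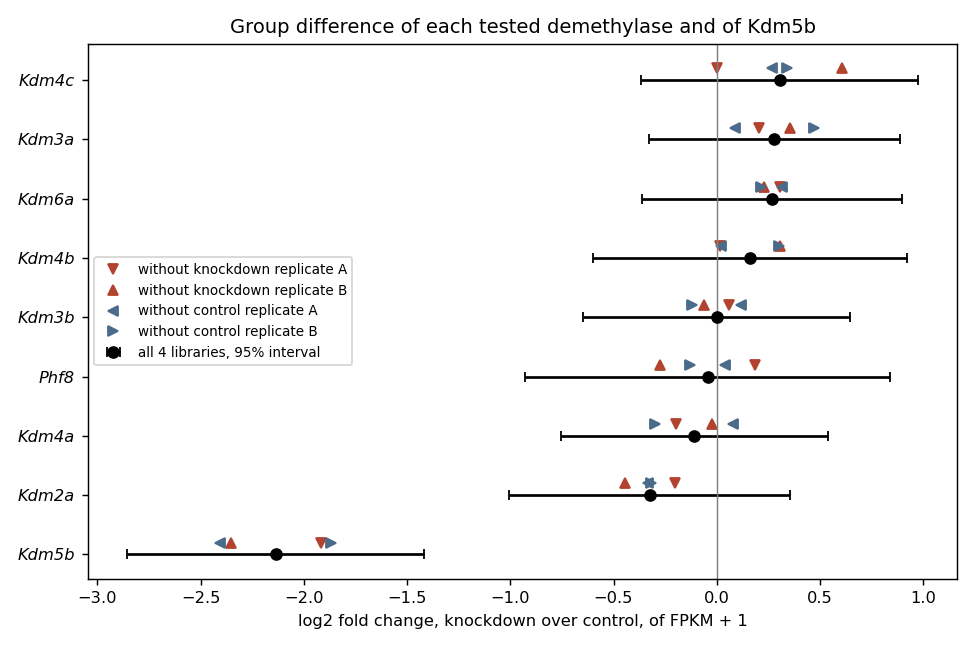
Log2 fold change of FPKM + 1, knockdown over control (horizontal axis), of the 8 tested demethylases and Kdm5b, with 95% intervals from all 4 libraries (black) and the value after leaving out each library (triangles, red for a knockdown and blue for a control library). The 8 demethylase intervals include 0, that of Kdm5b does not, and the Kdm4c value falls to 0.0034 without knockdown A.

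The levels fell into an order with few ties. Kdm4c, with a mean of 76.2 FPKM over the 4 libraries, exceeded Kdm3a (55.8 FPKM), Kdm3a exceeded Kdm4a (33.4 FPKM), and Kdm4a exceeded Kdm3b (22.0 FPKM), with no overlap of their ranges over the libraries. Kdm3b and Kdm6a (21.3 FPKM) were not separable, each being higher in 2 of 4 libraries. Kdm2a (15.9 FPKM) lay below Kdm6a in each library and above Kdm4b (11.9 FPKM) in 3 of 4, with overlapping ranges. Phf8 (6.93 FPKM) and Kdm6b (0.778 FPKM) came last without overlap. Among all loci tested these levels ranged from the percentile 34.1 for Phf8 to 89.9 for Kdm4c.

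Summed over the 9 members the level was 277 and 238 FPKM in knockdown A and B and 229 and 233 FPKM in control A and B. Knockdown A was the high one. Kdm4c supplied 37.1% and 28.3% of that sum in knockdown A and B and 28.6% and 29.6% in control A and B, and Kdm3a 23.2% and 24.3% against 19.1% and 24.7%. By substrate, the 6 H3K9 demethylases summed to 242 and 197 FPKM in knockdown A and B, against 190 and 196 FPKM in control A and B. The 4 acting on H3K36 summed to 164 and 124 FPKM, against 133 and 129 FPKM, and the H3K27 pair to 22.7 and 25.0 FPKM, against 21.2 and 19.3 FPKM. The H3K9 and H3K36 sums share the KDM4 genes.

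The members varied little between libraries. The SD of log2(FPKM + 1) over the 4 libraries had a median of 0.19 for the 8 tested members and 0.35 for all loci tested. It ranged from 0.11 for Kdm3b, at percentile 5.17 of all loci, to 0.30 for Kdm4c, at percentile 42.0. On the H3K27 methyltransferase side, Ezh1, Ezh2, Eed and Suz12 had SDs of 0.12, 0.31, 0.16 and 0.12. Small SDs were thus not particular to the members. Of the 8 members, 6 lie above the median level of the loci tested, and the loci were not matched for level. Their loci are also long, between 43040 bp for Kdm4a and 163368 bp for Kdm4c, and none shares its interval with another locus. The 3 loci whose values, centred over the 4 libraries, lay closest to the mean profile of the 8 members were Prdm4, Spopl and Pdha1, at root mean square distances of 0.0079, 0.011 and 0.012 log2 units. That profile was nearly flat, from 0.05 in knockdown A and 0.01 in knockdown B to -0.02 in control A and -0.04 in control B, so closeness to it means little variation over 4 libraries.

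Control A was the lowest library for 3 of the 8 tested members, Kdm3a, Kdm4b and Kdm4c, and for 26.2% of all loci. For Kdm4c it was only slightly lower, at 65.5 FPKM beside 67.4 FPKM in knockdown B and 69.0 FPKM in control B. Kdm3a and Kdm4b are known targets of the hypoxia response. Some genes that low oxygen induces differed widely between the controls and others did not, a pattern noticed after the values were seen. Slc2a1, a glucose transporter, had 256 and 140 FPKM in knockdown A and B and 61.3 and 262 FPKM in control A and B. Bnip3, a mitophagy receptor, had 40.0 and 31.9 FPKM in knockdown and 10.9 and 84.5 FPKM in control A and B. Ldha, lactate dehydrogenase, had 508 and 456 FPKM in knockdown and 232 and 632 FPKM in control A and B. In all 3 control A was the lowest library and control B the highest. Of the 10 tested genes of the hypoxia list 5 were lowest in control A, where 26.2% of all loci were, the other two being Ankrd37 and P4ha1. Slc2a1 was 4.28 times and Bnip3 7.75 times as high in control B as in control A. Over all loci the log2 difference between the controls had a median of -0.02 for B over A, and the differences of Slc2a1, Bnip3 and Ldha lay at the percentiles 99.7, 99.8 and 99.3. For Kdm3a and Kdm4b the ratio of control B to control A was 1.31 and 1.23, at the percentiles 81.0 and 73.7. Vegfa, Ndrg1, Ddit4 and Pfkfb3, also on the list, were instead highest in control A, with ratios of control B to control A of 0.853, 0.905, 0.951 and 0.617 at the percentiles 33.9, 41.0, 45.8 and 16.6. The part of the difference between the controls in the value of Kdm3a was not tested.

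**Figure D3:**
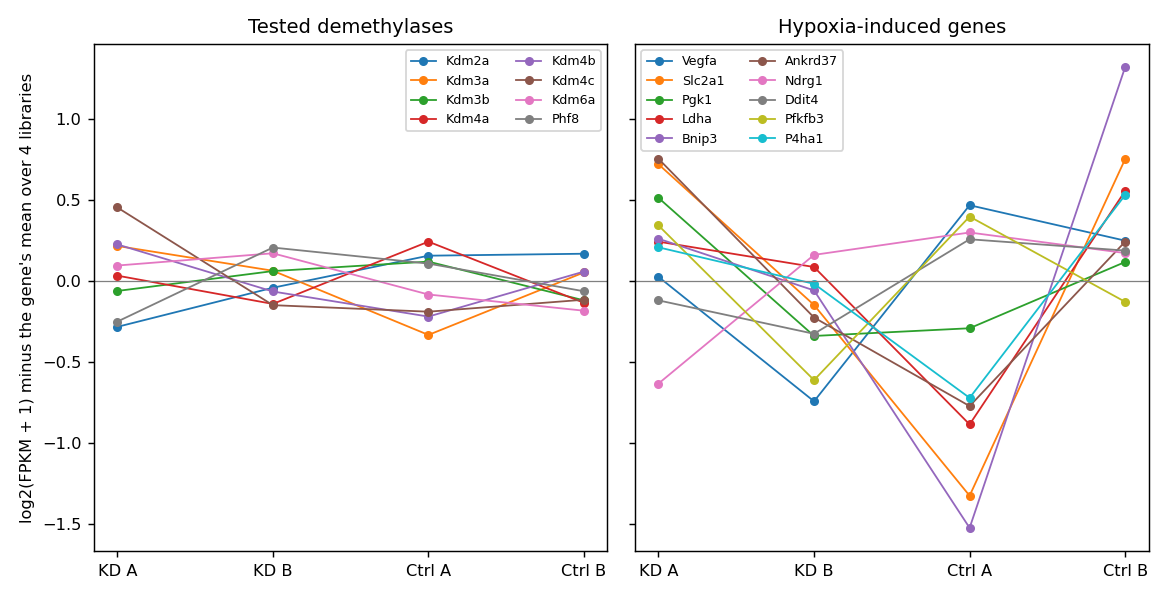
Log2(FPKM + 1) minus each gene's mean over the 4 libraries (vertical axis) in knockdown A, knockdown B, control A and control B, for the 8 tested demethylases (left) and 10 tested hypoxia-induced genes (right), with lines only to follow each gene. Bnip3, Slc2a1, Ldha, Ankrd37 and P4ha1 dip in control A, Kdm3a dips there by 0.33, and the demethylases span a narrower range.

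Genes around the demethylases were read from 8 lists with 69 entries, of which 67 were found and 62 tested. In the limma fit 0 of the 62 were called, at a background of 0.0339%, and 0 had an unadjusted p under 0.05. Of 14 other JmjC proteins 13 were tested, with a median log2 fold change of -0.21 and 0 called in either direction. Jmjd4, a lysyl hydroxylase of a translation termination factor, had 1.82 and 6.80 FPKM in knockdown A and B and 5.60 and 8.18 FPKM in control A and B (log2 fold change -0.73 with a standard error of 0.58, and 0.0022 without knockdown A). Kdm2b, the KDM2A paralog that recruits Polycomb complexes to CpG islands, had 16.0 and 22.7 FPKM in knockdown and 30.8 and 23.2 FPKM in control libraries (-0.46, standard error 0.31). Phf2, a relative of PHF8, stood at -0.44 (standard error 0.60) with 0.836 FPKM in both knockdown libraries and 1.34 and 1.65 FPKM in controls. Its level was near the minimum for testing, at percentile 2.25 of the loci tested. Of the 13 tested genes, 3 lay below both controls in both knockdown libraries, Kdm2b and Phf2 among them, where 16.9% of all loci did. Jmjd4 lay below both controls only in knockdown A. The median of the list was 0.0022 without knockdown A.

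None of the methyltransferases that write the same marks was called. The 6 tested of the H3K9 list had a median log2 fold change of 0.03, with -0.03 without control A and 0.19 without control B, and 0 called. The widest were Ehmt2 at 0.15, Suv39h1 at 0.13 and Suv39h2 at -0.08, and the signs of Ehmt2 and Suv39h2 changed when 1 control library was left out. On the H3K27 side all 4 genes of the list were tested, with a median of 0.13 and 0 called. Ezh2, the main H3K27 methyltransferase, had 33.2 and 29.9 FPKM in knockdown A and B, against 24.4 and 20.1 FPKM in control A and B (limma adjusted p = 0.918 at a log2 fold change of 0.49, standard error 0.26). Both knockdown libraries lay above both controls for Ezh2, the 1 gene of these 4 for which they did, where 15.0% of all loci did. Its partners Eed and Suz12 stood at 0.15 and 0.11, and the knockdown and control libraries overlapped for both. The 9 genes that write H3K36 and histone H4 methylation had a median of -0.03, and of 0.07 without control A and -0.14 without knockdown B or control B, and 0 called. Nsd2, an H3K36 methyltransferase, stood at -0.52, Setmar at 0.50 and Kmt5b at -0.46. Without knockdown A these were -0.42 for Nsd2, 0.03 for Setmar and -0.16 for Kmt5b. Of the 9 genes, 2 lay below both controls in both knockdown libraries, Nsd2 among them, where 16.9% of all loci did. For Setmar and Kmt5b the groups overlapped.

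The 7 tested partners of the demethylases had a median of -0.11 and 0 called, and the median was 0.07 without knockdown A and -0.38 without control B. Kmt2d, the MLL4 methyltransferase that holds UTX, had 1.68 and 5.01 FPKM in knockdown A and B and 5.65 and 3.15 FPKM in control A and B (log2 fold change -0.39, and 0.19 without knockdown A). The coactivator Ncoa6, found in the same complex, stood at -0.21, or 0.38 without knockdown B, and Kmt2c, the MLL3 methyltransferase, at -0.11, or 0.15 without control A. All 3 overlapped between groups. In the list of 2-oxoglutarate supply and oxygen sensing, 10 genes were tested, with a median of -0.14 (-0.29 without control A and -0.02 without control B) and 0 called. Egln2, a prolyl hydroxylase that tags the hypoxia factors for decay, had 14.1 and 17.3 FPKM in knockdown A and B and 22.9 and 21.1 FPKM in control A and B (-0.47, and -0.61 to -0.33 with each library left out). Its relative Egln1 had 1.82 and 4.10 FPKM in knockdown A and B and 2.18 and 8.92 FPKM in control A and B. The log2 fold change of Egln1 was -0.57, and it was -1.39 without control A and 0.26 without control B. Their hypoxia-induced relative Egln3 stood at 0.53, with -0.85 without control A and 1.90 without control B. Egln3 had 14.4 and 7.22 FPKM in knockdown A and B and 2.01 and 19.3 FPKM in control A and B, again lowest in control A and highest in control B.

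The 10 tested hypoxia-induced genes had a median log2 fold change of 0.18 and 0 called. That median was -0.02 without knockdown A, 0.33 without knockdown B, -0.41 without control A and 0.60 without control B, so its sign was not stable. Vegfa, the angiogenic growth factor, had 15.7 and 8.79 FPKM in knockdown A and B and 21.7 and 18.5 FPKM in controls (limma adjusted p = 0.918 at a log2 fold change of -0.72, standard error 0.36). Slc2a1 stood at 0.57 and Ankrd37, an ankyrin repeat gene, at 0.53, with overlap between groups for both, and at -0.47 and 0.02 without control A. Of the 4 genes listed as lying downstream of Kdm3a or Kdm4c in mouse embryonic stem cells, 3 were tested, with a median of -0.14 and 0 called, and the median was -0.32 without control A and 0.04 without control B. Zfp57, a zinc finger protein that protects imprints, had 132 and 76.7 FPKM in knockdown A and B and 51.1 and 108 FPKM in control A and B (0.43, standard error 0.43, and -0.10 without control A). Nanog, the pluripotency factor, had 186 and 161 FPKM in knockdown and 173 and 225 FPKM in controls (-0.19, and 0.0013 without control B). Tcl1, a cofactor of the AKT kinase, stood at -0.14, and at 0.04 without control B. The groups overlapped for all 3 of these genes.

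**Figure D4:**
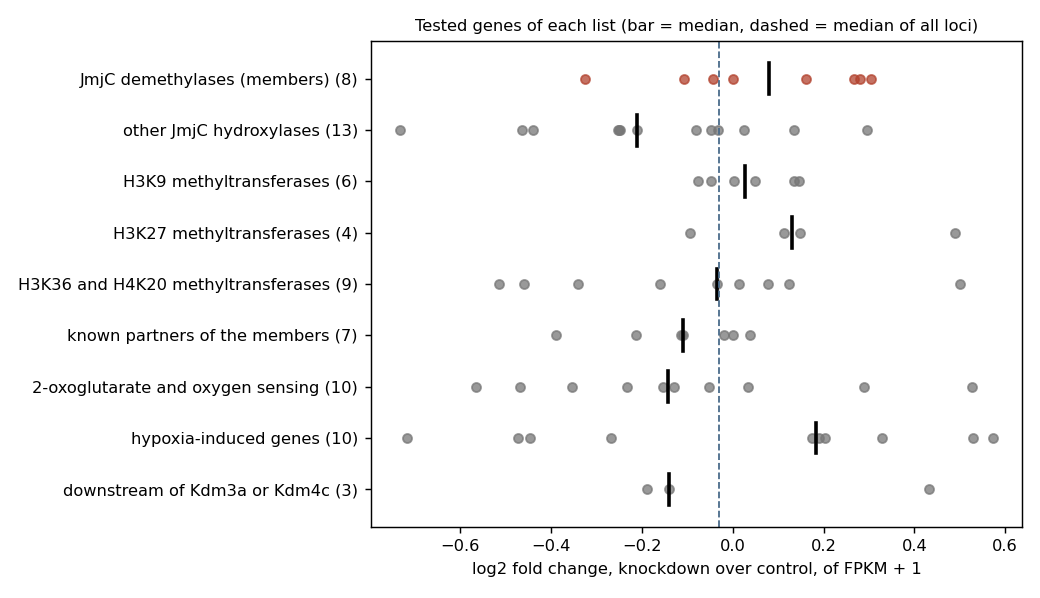
Log2 fold change of FPKM + 1, knockdown over control (horizontal axis), of each tested gene of the 8 demethylases (red) and of 8 related lists (grey), with the median of each list as a bar and the median of all loci, -0.03, as a dashed line. The demethylases range from -0.32 to 0.31 around a median of 0.08, and the median of the other JmjC proteins is -0.21.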

How the data were processed

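Total RNA of 2 knockdown and 2 control libraries was cleared of ribosomal RNA and marked for strand, per the labels' protocols. The authors deposited 1 table of FPKM per locus and library, made with Cufflinks and Cuffdiff on the mm9 build per the submitters' processing notes. The sources used here give no versions, aligner or strand setting. Antisense or near-identical copies may share fragments, which bears on every level above.

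Loci were named through RefSeq identifiers with a GRCm38.p6 table, used for names only: 23237 had 1 symbol, 189 several and 271 none. The row of highest mean stood for a symbol. Loci averaging at least 1 FPKM were fitted on log2(FPKM + 1) with limma 3.58.1 in R 4.3.3 (group alone, eBayes with trend, two-sided, Benjamini-Hochberg over 11784 loci, threshold 0.05). The fit was also run on simulated data that had the same noise SD at every locus and in every library. These libraries differ from that setting, so the simulation does not tell how the fit performs on them. Depth is unknown from FPKM totals and was estimated from steps between low values in transcripts of known length less 200 bp. With these steps, 77.6% to 81.5% of the low values lay within 0.15 of a whole fragment number. The steps were chosen for their fit to the same values, so that share is no separate check of the depths.

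The members, lists and rule for named genes were chosen with earlier results of these data known. The rule names the 9 members, Kdm5b, the 3 tested genes of each list with the largest absolute log2 fold change and the 3 loci closest to the members' mean profile. Other genes of the hypoxia list were named after their values were seen. Lists were described by counts and medians, with no list test. Alternatives were pseudocounts of 0.1 and 0.01, no filter, a filter at 5 FPKM, no small noncoding RNA loci, quantile normalization, upper-quartile scaling, eBayes robust or without trend, the replicate block and each library left out. Other steps used numpy 2.4.6, pandas 2.3.3 and matplotlib 3.10.9 under Python 3.11.15.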

Additional observations from a re-analysis of the deposited data

How the results depend on the processing

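No member was called in any of the 14 alternatives. Among those that kept all 4 libraries, the smallest limma adjusted p of a member was 0.868, without the filter on low values. These fits did not call the targeted gene Kdm5b either, with limma adjusted p from 0.0933 (replicate block) to 0.920 (eBayes without trend). The absence of calls therefore cannot tell whether the smaller member differences are real. Of 112 member log2 fold changes under alternatives, 105 kept their sign and 7 did not. The filters, the removal of small noncoding RNA loci, the eBayes options and the replicate block cannot alter a member's fold change. Values under those settings kept their sign by construction, so the count of 105 overstates how stable the signs were. Kdm3b was 0.0023 and Phf8 0.062 with quantile normalization. Leaving out each replicate gave -0.12 to 0.12 for Kdm3b, -0.30 to 0.081 for Kdm4a and -0.27 to 0.18 for Phf8. The members' median of 0.08 became 0.0067 with upper-quartile scaling, which moved the median of all loci from -0.03 to -0.10. The 4 calls among all loci became 1 without the filter on low values, 1 without small noncoding RNA loci and 2 with eBayes without trend, and leaving out each replicate gave 0 (without control A or control B) to 134 (without knockdown B). At an unadjusted p under 0.05 limma gave 87 and 324 loci without control A and control B. The cause was not tested. The replicate letters do not pair the libraries by the labels, and same-letter deviations correlated at -0.068 across loci. With the replicate block 7 loci were called, and 0 members. Without knockdown A, the library of lowest estimated depth, 13 loci and 0 members were called.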
